A study of Homo sapiens with 8 samples.

Results

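The MHC class I and peptide loading genes measured here were HLA-B, HLA-C, HLA-E, HLA-F, B2M, TAP1, TAP2, TAPBP and NLRC5. They were taken by name, 9 of the 57500 genes in the count table, and all 9 were among the 19171 genes with enough reads to be tested. The samples were HEK293T cells, a line derived from human embryonic kidney that carries the SV40 large T antigen, treated with 100 µM DZNep for 48 h or with vehicle for the same time. There were 4 Control and 4 DZNep libraries of total RNA, from biological replicates of 1 line at 1 dose. DZNep (3-deazaneplanocin A) is an inhibitor of S-adenosyl-homocysteine hydrolase, and its block lowers the methylation potential of the cell. The question put to these genes was which of them differed between DZNep-treated and vehicle-treated cells. These are bulk libraries, in which a change in RNA per cell and a change in the share of cells making a transcript cannot be told apart.

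MHC class I molecules display peptides from inside the cell on its surface, where CD8+ T cells and natural killer cells read them. A heavy chain (HLA-B, HLA-C, HLA-E or HLA-F) pairs with the light chain beta-2-microglobulin (B2M) in the endoplasmic reticulum. The TAP1 and TAP2 proteins form 1 transporter that brings peptides in from the cytosol, and tapasin (TAPBP) bridges it to the empty heavy chain. NLRC5 is the class I transactivator, which acts at class I promoters together with the RFX, CREB/ATF and NF-Y proteins. Interferon-gamma and NF-κB are the other classical inputs to these genes. The line is not an immune cell, but class I genes are expressed in nearly all nucleated cells.

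The stretches of promoter that hold sequence motifs of these inputs are shown for the 7 of 9 members with an entry in the RefSeq promoter table (GRCh38.p14), so that members called in opposite directions can be read side by side. HLA-E and NLRC5 were not among them. The 250 bases before each start were searched on both strands for an interferon-response motif (GAAA, any 2 bases, GAAA), a κB motif (GGG, any 2 bases, TT, any base, CC), a CRE core (TGACG) and a CCAAT box (CCAAT), and overlapping matches were counted. Capitals mark the matches, and each run reads 5′ to 3′ on the strand of its gene. The runs lie at chr6:31357219-31357368, chr6:31272132-31272296, chr6:32853755-32853954, chr6:32838758-32838809 and chr6:33314079-33314146 on the minus strand, and at chr6:29723266-29723393 and chr15:44711361-44711484 on the plus strand.
HLA-B: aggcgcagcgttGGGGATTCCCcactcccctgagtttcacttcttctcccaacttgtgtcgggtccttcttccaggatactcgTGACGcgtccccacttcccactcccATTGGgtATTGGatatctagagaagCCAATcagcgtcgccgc
HLA-C: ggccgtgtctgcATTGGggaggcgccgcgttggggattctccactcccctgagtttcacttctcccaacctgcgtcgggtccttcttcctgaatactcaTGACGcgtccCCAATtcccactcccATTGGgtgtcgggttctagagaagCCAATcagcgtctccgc
HLA-F: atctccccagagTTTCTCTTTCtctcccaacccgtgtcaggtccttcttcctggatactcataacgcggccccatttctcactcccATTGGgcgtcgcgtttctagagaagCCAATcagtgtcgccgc
B2M: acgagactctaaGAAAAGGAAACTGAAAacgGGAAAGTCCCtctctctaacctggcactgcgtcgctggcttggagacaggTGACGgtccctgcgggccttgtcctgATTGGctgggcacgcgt
TAP1: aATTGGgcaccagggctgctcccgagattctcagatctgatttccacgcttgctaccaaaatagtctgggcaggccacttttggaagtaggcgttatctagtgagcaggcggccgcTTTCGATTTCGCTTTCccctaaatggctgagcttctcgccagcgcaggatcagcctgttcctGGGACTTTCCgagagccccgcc
TAP2: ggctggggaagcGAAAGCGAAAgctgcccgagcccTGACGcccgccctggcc
TAPBP: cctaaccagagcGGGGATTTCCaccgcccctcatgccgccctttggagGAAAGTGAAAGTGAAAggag

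The interferon-response motif was present in 5 of the 7 promoters (HLA-F, B2M, TAP1, TAP2 and TAPBP), against 3.02% of the 35116 promoters in the table. The members had 8 promoters, since TAP1 has a second one with 0 matches of any motif, and a member was counted if any of its promoters matched, while the shares over the table are per promoter. In TAP1, TAPBP and B2M it was matched at 2 overlapping positions. The κB motif was present in 4 of the 7 (HLA-B, B2M, TAP1 and TAPBP), against 5.07% of all promoters. A CRE core and a CCAAT box occurred together in 3 of the 7 (HLA-B, HLA-C and B2M), against 7.26% of all promoters. The CRE core by itself was present in 21.2% of all promoters and in 4 of the 7 (TAP2 besides those 3), and the CCAAT box in 32% and in 5 of the 7 (HLA-F and TAP1 besides those 3). The TAP1 and PSMB9 starts in the same table lie 488 bases apart on opposite strands. These matches are letters in a window and were not measured as bound sites. A promoter without a match of these exact letters may still hold a variant of the motif.

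The libraries held between 25043058 and 44902779 counted reads, Control 1 being the shallowest. A total of 3 reads corresponded to 1.2e-05% of that library, a floor that covers counting error alone. Of the 11 embryonic kidney and neural genes known in HEK293 cells, 9 were tested, and their summed normalized count ran from 11978 to 18418 in Control and from 12816 to 13814 in DZNep. Of the tested 9, edgeR called 2 higher and 3 lower after DZNep, where 19.1% and 21.8% of all genes tested were. These counts are too few to be a result about the markers as a group. The former included NEFH (a neurofilament subunit, log2 fold change 1.09) and the latter LHX1 (a kidney and neural homeobox factor, -1.43). Of 12 leukocyte markers, 6 were tested and 0 were called by edgeR. At an unadjusted p under 0.05 there was 1 of them, without a share of all genes to set beside it. DESeq2 called 0, limma 1, and edgeR with every gene that had at least 1 read 3. The limma call and these 3 were higher, as were 20% and 10.4% of all genes in those fits. Their summed normalized count ran from 192 to 382 in Control and from 247 to 652 in DZNep. LYZ (lysozyme, log2 fold change 2.52, edgeR adjusted p = 0.0692) stood at 450 in DZNep 2 and at 21.6 to 24.7 in the other DZNep libraries, and without LYZ the sums were 170 to 364 and 201 to 413. The LYZ log2 fold change was 0.02 without DZNep 2 (adjusted p = 0.97), 2.86 to 2.89 without DZNep 1, 3 or 4 (adjusted p 0.0391 to 0.0477) and 1.29 with the replicate block (adjusted p = 0.0964). CD79A, a B cell receptor component, had a log2 fold change of -0.66 (adjusted p = 0.268), and MS4A1, another defining B cell marker, was at 0 in all 8 libraries. CD3E, a T cell receptor component, was at 0 in all Control libraries and at 8.16 to 40.5 in DZNep, and KLRD1, a natural killer receptor, at 0 and at 8.05 to 16.4. Other natural killer genes of the list did not follow, with NKG7 at 0 to 9.67 in Control and 0.864 to 2.42 in DZNep, GNLY at a log2 fold change of -0.51 (adjusted p = 0.646), and FCGR3A at 23.4 in DZNep 2 but 0.864 to 1.81 in the other DZNep libraries. These 5 markers were singled out after their values were seen. The part of these markers in the class I results was not tested.

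The class I genes were called in both directions after DZNep. With edgeR's quasi-likelihood test, adjusted by Benjamini-Hochberg over all genes tested, 3 of the 9 rose (HLA-B, TAP1 and NLRC5) at an adjusted p under 0.05, where 19.1% of all genes tested did so. Another 2 of the 9 fell (HLA-F and TAP2), against 21.8% of all genes, and 4 were not called. The count of members that fell was thus near the share over all genes and is no result about the members as a group. The count that rose was 0 to 2 with 1 library left out and is not read as a group result either. The median log2 fold change of the 9 was 0.24, and -0.03 for all genes tested, and the median absolute change was 0.42 against 0.54. Of the 9, 0 passed an absolute log2 fold change of 1 in addition, a step that 10.6% of all genes passed upward and 13.5% downward. The count there was also 0 with DESeq2 (11.2% and 13.6% of all genes) and limma (11% and 12.3%). It was 0 as well with the replicate block (11.7% and 14.3%) and with edgeR on every gene with at least 1 read (7.37% and 7.67%). At an unadjusted edgeR p under 0.05, 4 members were higher and 3 lower. No share of all genes is given at that p, so these counts are not read as a result about the members. Blocking on replicate number gave 4 higher and 3 lower, where 28.8% and 30.2% of all genes were. DESeq2 gave 4 higher and 2 lower (21.9% and 23.3% of all genes), limma 3 and 2 (20% and 20.4%), and edgeR on every gene with at least 1 read 1 and 2 (10.4% and 10.6%). The normalized counts of the groups did not overlap for 6 of the 9, against 38.9% of all genes tested, 4 with DZNep above (19.5%) and 2 with DZNep below (19.4%). For 4 against 4 libraries the two-sided exact permutation test can go no lower than p = 0.0286.

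**Figure D1:**
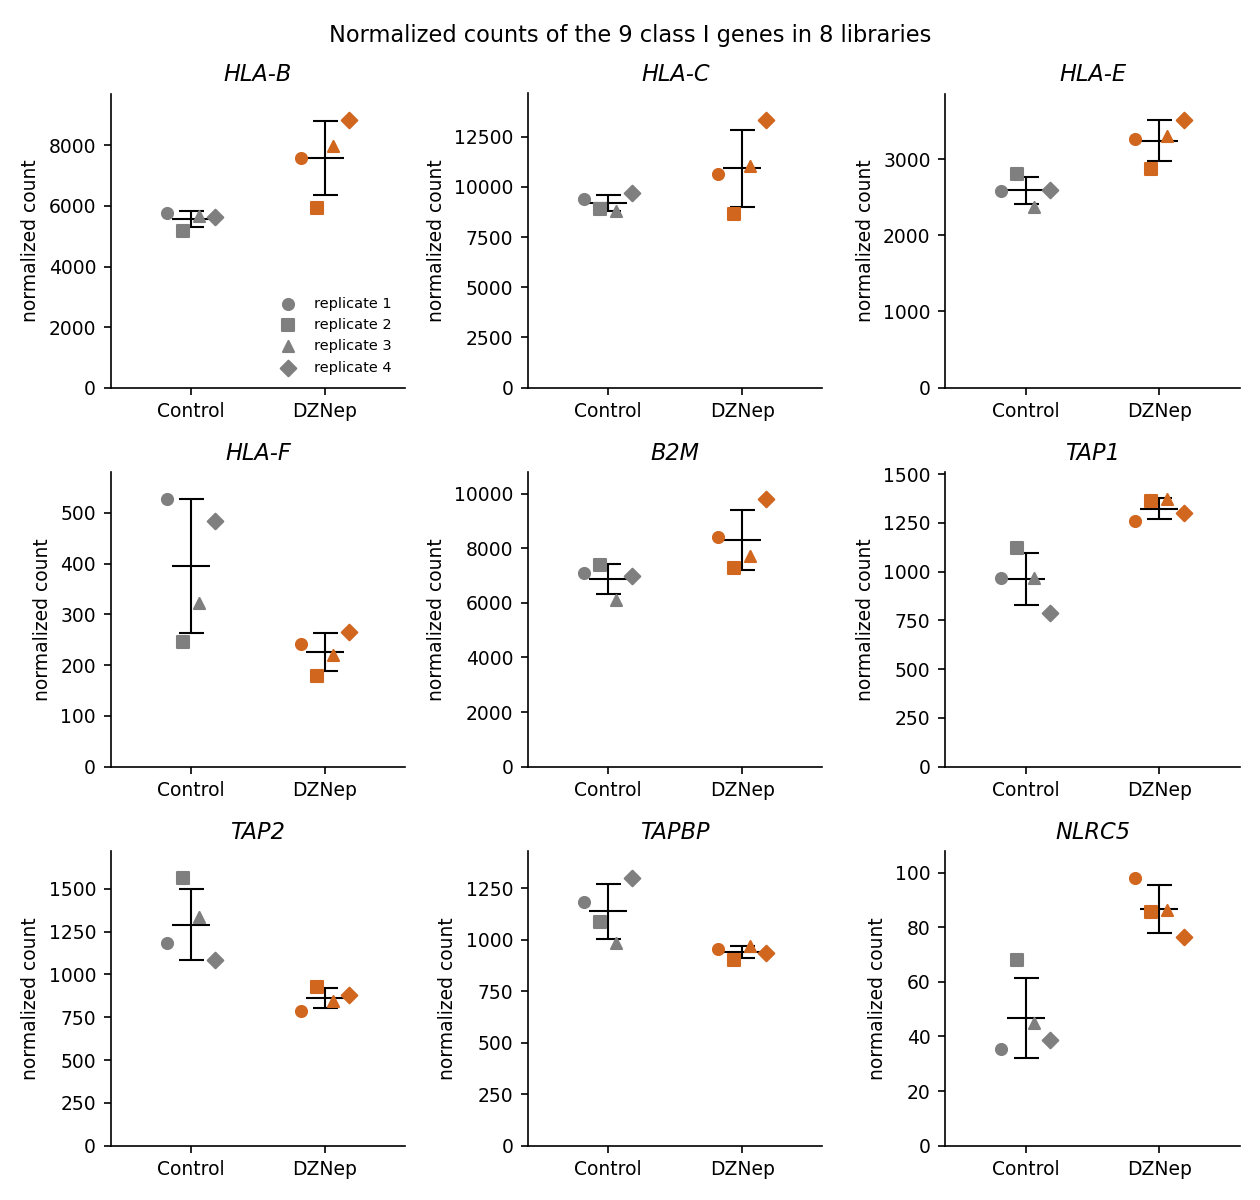
Normalized counts (y axes, from 0) of the 9 genes in Control (grey) and DZNep (orange) libraries, with a marker shape for each replicate number and bars for mean ± SD (n = 4). HLA-B, HLA-E, TAP1 and NLRC5 have every DZNep library above every Control library, TAP2 and TAPBP every DZNep library below, and HLA-C, HLA-F and B2M overlap.

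HLA-B, a classical heavy chain that presents peptides to CD8+ T cells, rose 1.34-fold. HLA-B (ENSG00000234745, chromosome 6 from 31353872 to 31367067 on the minus strand of GRCh38) had normalized counts of 5770, 5167, 5658 and 5630 in Control 1 to 4 and of 7578, 5949, 7996 and 8832 in DZNep 1 to 4. All 4 DZNep libraries were above the highest Control library, DZNep 2 by the least. The group means were 5556 ± 266 and 7589 ± 1211 (SD, n = 4), and the log2 fold change was 0.42 ± 0.15 (SE) with an edgeR adjusted p of 0.0488. This was close to the threshold, and the call was lost when any 1 library other than DZNep 2 was left out, with adjusted p from 0.0722 without Control 4 to 0.11 without DZNep 4.

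HLA-C, the other classical heavy chain measured, was not called. HLA-C (ENSG00000204525, chromosome 6 from 31268749 to 31272130, minus strand) had 9394, 8922, 8807 and 9691 normalized counts in Control and 10672, 8652, 11062 and 13326 in DZNep. The groups overlapped, since DZNep 2 was below every Control library while the other DZNep libraries were above them all. The log2 fold change was 0.22, with a 95% interval from -0.13 to 0.57 and an edgeR adjusted p of 0.296. DZNep 2 was also the lowest DZNep library for HLA-B, HLA-E, HLA-F, B2M and TAPBP.

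HLA-E, a nonclassical heavy chain that presents leader peptides of other class I molecules to natural killer receptors, was separated between the groups but called only in some fits. HLA-E (ENSG00000204592, chromosome 6 from 30489509 to 30494194, plus strand) had 2578, 2811, 2377 and 2595 normalized counts in Control and 3271, 2869, 3309 and 3511 in DZNep. The lowest DZNep library, DZNep 2, was just above the highest Control library, Control 2. The log2 fold change was 0.30 ± 0.13 (SE), and edgeR's adjusted p was 0.0934 without a block and 0.0406 with the replicate block. DESeq2 gave 0.32 with an adjusted p of 0.0216.

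HLA-F, a nonclassical heavy chain that can reach the surface without peptide, went the other way and fell to 0.564 of its Control level. HLA-F (ENSG00000204642, chromosome 6 from 29722775 to 29738528, plus strand) had 527, 246, 323 and 485 normalized counts in Control and 242, 178, 221 and 265 in DZNep. Controls 1 and 4 were about as high as each other and well above Controls 2 and 3, and the groups overlapped, because Control 2 was below DZNep 4. The log2 fold change was -0.83 ± 0.25 (SE), with an edgeR adjusted p of 0.0248, and the 4 same-number differences were -1.12, -0.46, -0.55 and -0.87. The exact permutation p of the normalized counts was 0.0571. The call was lost without Control 1, Control 4, DZNep 1, DZNep 2 or DZNep 3 (adjusted p 0.0535 to 0.0719), and without Control 2 the log2 fold change was -1.0. HLA-F-AS1, an antisense gene that overlaps 12.4% of its exon bases, had 106 to 142 normalized counts in Control and 147 to 172 in DZNep, and without a stated strand setting the reads of the overlap cannot be told apart. The same limit holds for other members, since antisense genes share 14.5% of the exon bases of HLA-B, 14.2% of those of TAP1 and 21% of those of TAPBP.

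The light chain gene B2M was not called. B2M (ENSG00000166710, chromosome 15 from 44711358 to 44718851, plus strand) had 7079, 7372, 6092 and 6967 normalized counts in Control and 8426, 7266, 7696 and 9792 in DZNep. DZNep 2 lay within the Control range and the other DZNep libraries above it. The log2 fold change was 0.24, with a 95% interval from -0.08 to 0.57 and an edgeR adjusted p of 0.215. The heavy chains are close relatives in sequence, and HLA-B and HLA-C counts in particular are uncertain to the extent that reads matching both were not counted.

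The subunits of the peptide transporter moved apart. TAP1 (ENSG00000168394, chromosome 6 from 32845209 to 32853816, minus strand) had 968, 1122, 968 and 790 normalized counts in Control and 1259, 1364, 1371 and 1300 in DZNep. All DZNep libraries were above all Control libraries, and they were closer together (SD 53.6 against 136, n = 4). TAP1 rose 1.35-fold, with a log2 fold change of 0.43 ± 0.14 (SE) and an edgeR adjusted p of 0.0309. The call was lost without Control 1, 3 or 4 or DZNep 1, 2 or 3 (adjusted p 0.0622 to 0.0771). With library sizes alone in place of TMM the adjusted p was 0.0547.

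TAP2 (ENSG00000204267, chromosome 6 from 32821833 to 32838739, minus strand) had 1181, 1561, 1335 and 1082 normalized counts in Control and 788, 929, 846 and 880 in DZNep. All DZNep libraries were below all Control libraries. TAP2 fell to 0.655 of its Control level, a log2 fold change of -0.61 ± 0.15 (SE) with an edgeR adjusted p of 0.00832. It was the member with the lowest adjusted p, and its call was kept without any 1 of the 8 libraries (adjusted p 0.00478 to 0.045). A protein-coding gene on the same strand without a symbol shares 19.5% of the exon bases of TAP2 and had at most 21.4 normalized counts in any library.

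TAPBP, whose product tapasin holds the heavy chain at the transporter, was lower in DZNep by a smaller step and was called only with the block. TAPBP (ENSG00000231925, chromosome 6 from 33299694 to 33314284, minus strand) had 1182, 1087, 986 and 1299 normalized counts in Control and 956, 901, 972 and 936 in DZNep. Control 3 and DZNep 3 were nearly equal, and all DZNep libraries were below all Control libraries. The log2 fold change was -0.30 ± 0.13 (SE), with an edgeR adjusted p of 0.099 without a block and 0.0493 with the replicate block.

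NLRC5, the transactivator, was the least abundant member and had the largest log2 fold change upward among the 9. NLRC5 (ENSG00000140853, chromosome 16 from 56989485 to 57083531, plus strand) had 35.5, 67.9, 44.8 and 38.7 normalized counts in Control and 97.9, 85.4, 86.4 and 76.5 in DZNep. All DZNep libraries were above all Control libraries, Control 2 being the nearest to them. NLRC5 rose 1.81-fold, with a log2 fold change of 0.85 ± 0.26 (SE) and an edgeR adjusted p of 0.0222. These values rest on 23 to 76 reads a library in Control and 68 to 108 in DZNep. The call was lost without Control 1, Control 3, DZNep 1 or DZNep 3 (adjusted p 0.0513 to 0.0692), and without Control 2 the log2 fold change was 1.09.

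**Figure D2:**
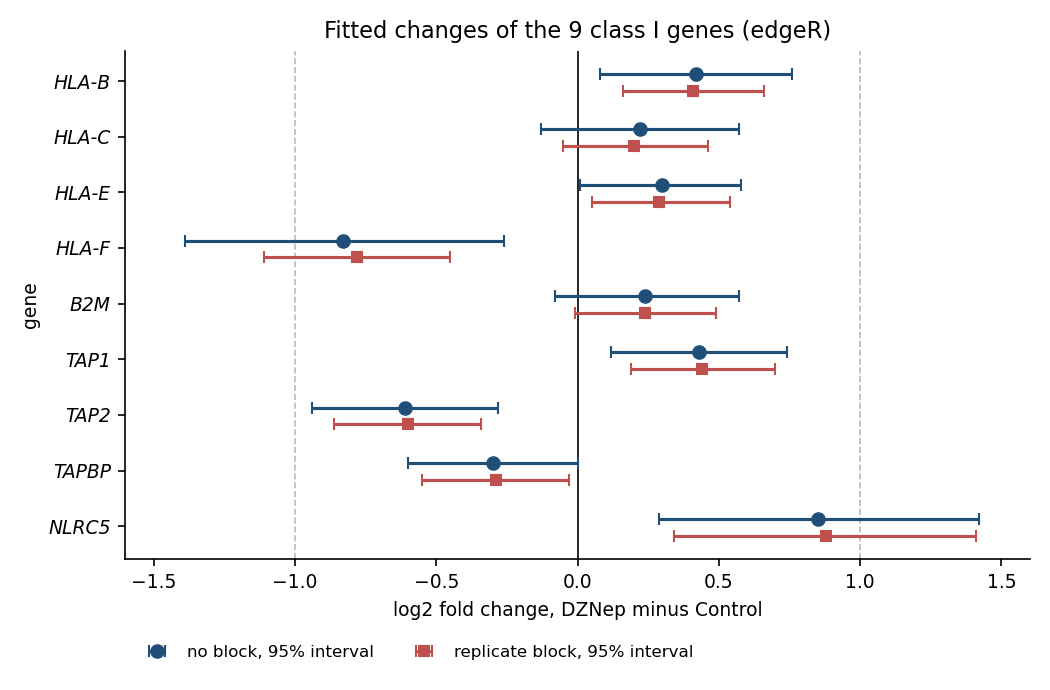
Log2 fold changes (x axis, DZNep minus Control, 4 libraries a group) of the 9 genes fitted with edgeR without a block (circles) and blocked on replicate number (squares), each with its 95% interval, and dashed lines at an absolute value of 1. HLA-F (-0.83) and TAP2 (-0.61) stand below 0 and NLRC5 (0.85) farthest above it, and the intervals of HLA-C and B2M include 0.

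Ratios of read counts between partner genes, which do not depend on how libraries are scaled, were compared for 9 pairs. The log2 ratio of TAP1 to TAP2 was -0.29, -0.48, -0.46 and -0.45 in Control and 0.68, 0.55, 0.70 and 0.56 in DZNep. TAP1 thus had fewer reads than TAP2 in every Control library and more in every DZNep library. The mean moved from -0.42 ± 0.09 to 0.62 ± 0.07 (SD, n = 4), a difference of 1.04 or 2.06-fold (exact permutation p = 0.0286, 0.0514 after Benjamini-Hochberg adjustment over the 9 pairs). The raw p is the smallest that 4 against 4 libraries can give, and 5 of the 9 pairs reached it, so none of the 9 was under 0.05 after adjustment.

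The log2 ratio of TAPBP to TAP1 was 0.29, -0.05, 0.03 and 0.72 in Control and -0.40, -0.60, -0.50 and -0.47 in DZNep, without overlap, a difference of -0.74 (exact permutation p = 0.0286, adjusted 0.0514). Heavy chains also differed among themselves: HLA-B to HLA-C went from -0.73 ± 0.07 to -0.52 ± 0.06 (SD, n = 4), without overlap, a difference of 0.20 (exact permutation p = 0.0286, adjusted 0.0514). For the heavy chains against their light chain, HLA-B to B2M differed by 0.17 with overlapping groups (exact permutation p = 0.229, adjusted 0.294), though it was higher in all 4 same-number pairs. HLA-C to B2M differed by -0.03 (exact permutation p = 0.714, adjusted 0.804) and was lower in all 4 same-number pairs, for which a sign-flip test can go no lower than an exact p of 0.125.

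The remaining pairs set the interferon-inducible proteasome subunits against the constitutive ones whose place they take. PSMB10 to PSMB7 went from -5.52 ± 0.24 to -4.78 ± 0.06 (SD, n = 4), without overlap and by 0.74 (exact permutation p = 0.0286, adjusted 0.0514). PSMB8 to PSMB5 differed by -1.02 (exact permutation p = 0.0286, adjusted 0.0514), but the size rested on DZNep 2, at -8.6 where the other DZNep libraries were between -6.11 and -5.92. Without DZNep 2 the difference was -0.38. PSMB9 to PSMB6 differed by 0.37 (exact permutation p = 0.171, adjusted 0.257), and TAP1 to PSMB9, its neighbour on the opposite strand, by -0.03 (exact permutation p = 0.943, adjusted 0.943).

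**Figure D3:**
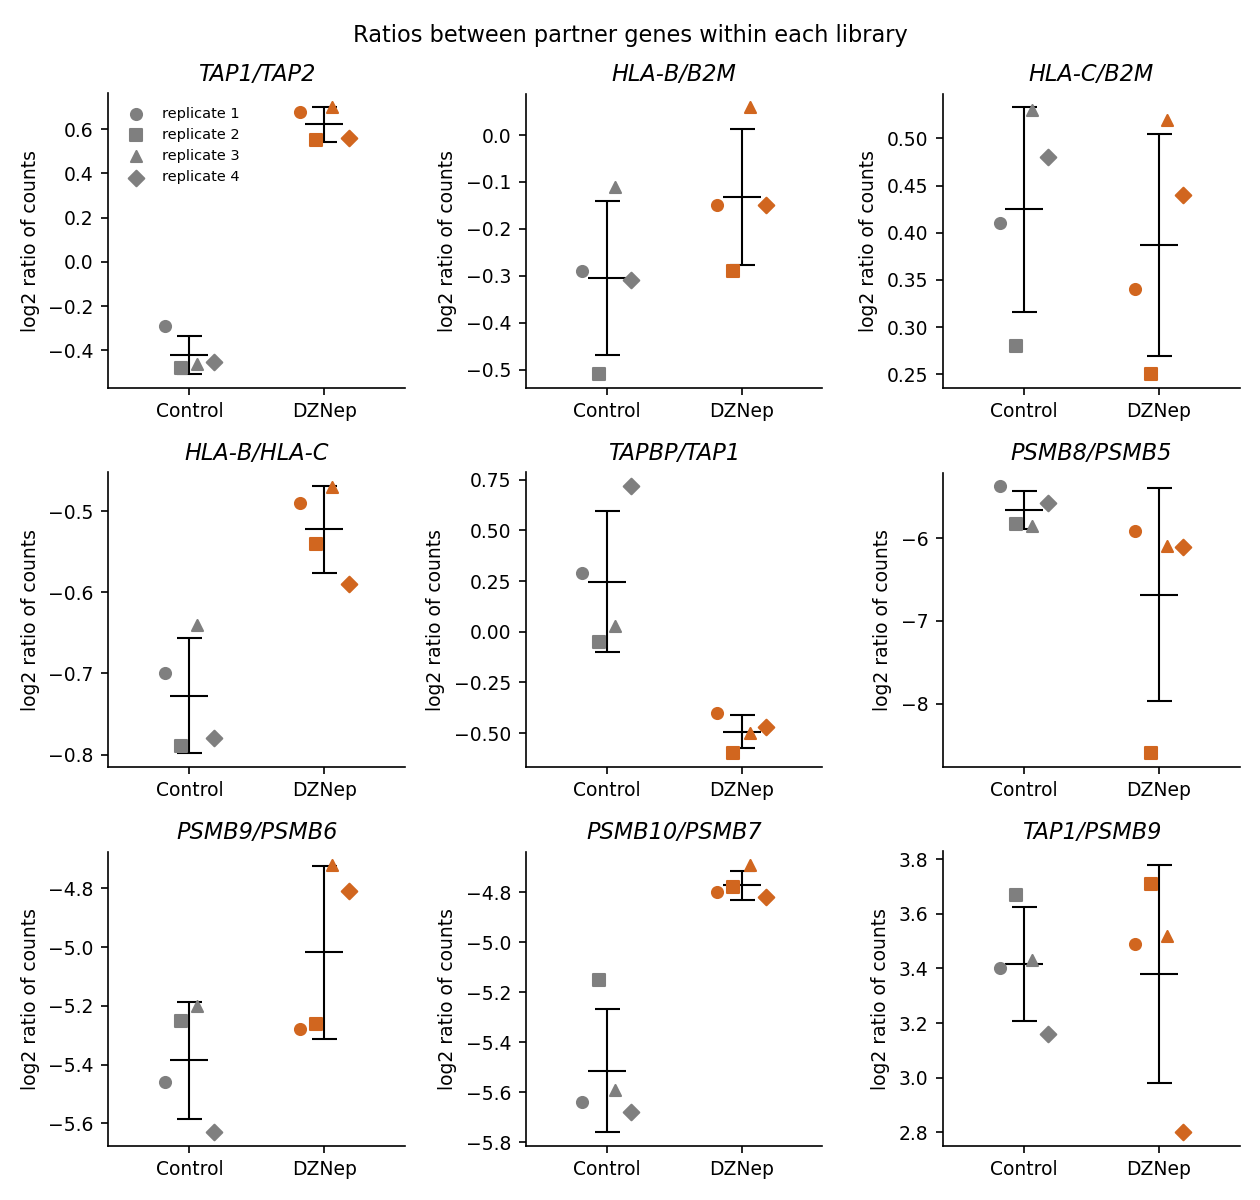
Log2 ratios of read counts within each library (y axes, not starting at 0) for 9 pairs of partner genes in Control (grey) and DZNep (orange), with a marker shape for each replicate number and bars for mean ± SD (n = 4). The TAP1 to TAP2 ratio changes sign between the groups, and the HLA-C to B2M ratio lies over the same range in both.

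Per length of exon, as a TPM-like level (counts per kilobase, scaled to the same sum in each library), HLA-C was the most abundant member in Control at 318 ± 75.1 (SD, n = 4). It was followed by B2M at 192 ± 51.9, HLA-B at 104 ± 26.8 and HLA-E at 77.4 ± 22.3. The loading genes came well below, with TAP1 at 18.2 ± 6.88, TAPBP at 14.6 ± 2.66 and TAP2 at 11.2 ± 4.57. HLA-F, at 7.52 ± 1.58, was the rarest of the 4 heavy chains among the members, and NLRC5 stood at 0.343 ± 0.183. In Control, neighbours in this order overlapped between libraries, except HLA-E with TAP1 and HLA-F with NLRC5. In DZNep the order was the same, at 381 for HLA-C, 233 for B2M, 144 for HLA-B, 98 for HLA-E, 25 for TAP1, 12.6 for TAPBP, 7.42 for TAP2, 4.59 for HLA-F and 0.626 for NLRC5, and no neighbouring pair overlapped. With the length of the longest transcript, the levels of HLA-F and TAPBP in Control were 15.5 and 17.3, and HLA-F then came before TAP2.

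TAP1, TAP2 and TAPBP lie in the class II region of chromosome 6. Within 500 kb of the TAP1 start, 9 of 11 class II genes rose, while of the 3 loading genes 1 rose and 1 fell. Of all genes tested, 19.1% rose and 21.8% fell in edgeR. With only 3 loading genes, 1 and 1 are no result about them as a group. HLA-DOB, a class II modulator whose start is 33.4 kb from that of TAP1 on the side of TAP2, had a log2 fold change of 1.28 ± 0.33 (SE, edgeR adjusted p = 0.0102). HLA-DMB and HLA-DMA, which load peptides on class II molecules, had 2.13 ± 0.25 and 1.77 ± 0.20 (adjusted p 0.000152 and 0.000127). TAP2, 15.1 kb from the TAP1 start between HLA-DOB and TAP1, had -0.61. The immunoproteasome genes PSMB8 and PSMB9 neighbour TAP1, PSMB9 with a RefSeq start just beyond that of TAP1 and an outermost GENCODE start on the TAP2 side of it. PSMB9 and PSMB8 had 0.52 ± 0.22 and -0.29 ± 0.46 and were not called (adjusted p 0.0921 and 0.653). PSMB9 had 87.5 to 91 normalized counts in Control and 104 to 186 in DZNep, without overlap, and PSMB8 had 18.5 in DZNep 2 against 85.5 to 122 in the other DZNep libraries. Genes outside antigen presentation in the same window also changed, in both directions, as did COL11A2, a collagen (3.37 ± 0.32, adjusted p = 4.55e-05), and HSD17B8, a fatty acid synthesis enzyme (-1.56 ± 0.30, adjusted p = 0.00215), both named after their values were seen.

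**Figure D4:**
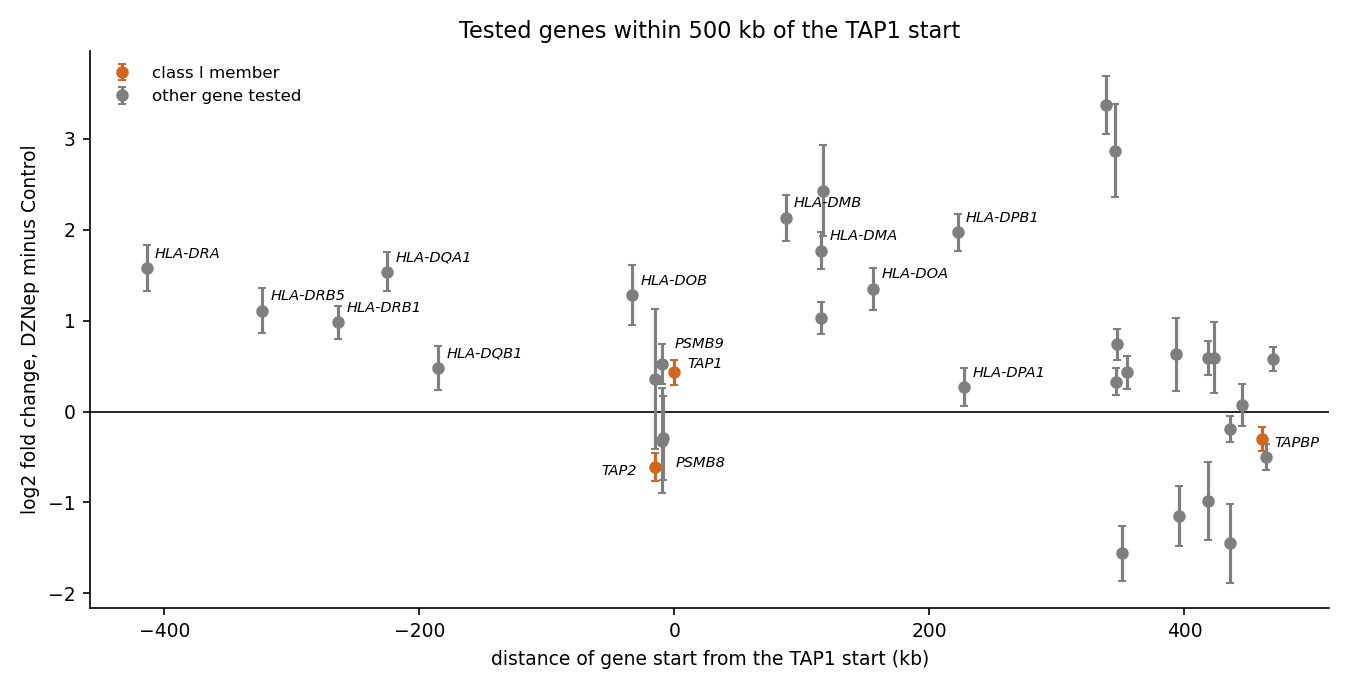
Log2 fold changes with standard errors (y axis, DZNep minus Control, 4 libraries a group) of the tested genes by the distance of their outermost annotated start from that of TAP1 (x axis, kb). TAP1, TAP2 and TAPBP (orange) lie between -0.61 and 0.43, within a spread over the other genes (grey) that runs from -1.56 for HSD17B8 to 3.37 for COL11A2, with HLA-DMB at 2.13 and HLA-DPB1 at 1.97.

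The other steps of the pathway were described by lists of genes, whose counts stand beside the 19.1% of all genes that rose and the 21.8% that fell in edgeR, and the 28.8% and 30.2% with the replicate block. In the endoplasmic reticulum, 15 genes of class I assembly and peptide trimming were all tested, of which 3 rose and 2 fell, with a median log2 fold change of -0.06. With the replicate block 4 rose and 4 fell. These counts are near or under the shares over all genes and are no result about the list. MOGS, a glucosidase that trims new N-glycans, rose (0.82, edgeR adjusted p = 0.00475), and UGGT2, which re-glucosylates misfolded glycoproteins, fell (-0.88, adjusted p = 0.00146). Chosen after their values were seen, CALR (calreticulin, the chaperone of the loading complex) rose by 0.74 (adjusted p = 0.0144), the trimming peptidase ERAP2 rose by 0.53 (adjusted p = 0.0398) and UGGT1 fell by 0.71 (adjusted p = 0.0226). Of the other named partners, PDIA3 was at 0.17 (adjusted p = 0.376), CANX at -0.45 (adjusted p = 0.109) and ERAP1 at -0.42 (adjusted p = 0.267). With the block the adjusted p was 0.00988 for CANX and 0.0437 for ERAP1, and CANX was at 0.0468 without Control 4. ERAP2 lost its call without Control 1, 2 or 3 or DZNep 3 or 4 (adjusted p 0.0597 to 0.114), and UGGT1 without DZNep 1, 3 or 4 (adjusted p 0.0526 to 0.08).

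In the proteasome, 8 immunoproteasome and activator genes were tested and 1 rose and 1 fell (median 0.31). POMP, the proteasome maturation protein, rose (0.47, edgeR adjusted p = 0.0389), and PSME1, a subunit of the activator PA28, fell (-0.61, adjusted p = 0.0291), with overlapping groups. The block gave 3 higher and 2 lower. PSME1 lost its call without Control 1 or 4 or DZNep 1, 2 or 3 (adjusted p 0.0618 to 0.0781), and POMP without Control 1 or 3 or DZNep 1, 2 or 4 (adjusted p 0.0612 to 0.108). PSMB10 was at 0.46 (adjusted p = 0.1, and 0.0256 with the block). Among 3 constitutive catalytic subunits, PSMB5 rose (0.45, adjusted p = 0.031, lost without the same libraries as POMP at 0.0611 to 0.0828), PSMB6 was at 0.12 (adjusted p = 0.619) and PSMB7 at -0.29 (adjusted p = 0.319, and 0.0425 with the block).

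Of 19 class I-like genes and natural killer ligands, 12 were tested, and the called genes went both ways, with 3 higher and 3 lower (median 0.28). RAET1G, a ligand of the NKG2D receptor, rose, with 45.7 to 51.8 normalized counts in Control and 119 to 232 in DZNep (1.70, edgeR adjusted p = 0.000428). MICB, another NKG2D ligand, rose by 0.67 (adjusted p = 0.0123) and PROCR, the protein C receptor with a class I-like fold, by 0.82 (adjusted p = 0.0105), both named after their values were seen. FCGRT, HFE and MR1 fell past a log2 fold change of 1. FCGRT, the neonatal Fc receptor, had -1.56 (adjusted p = 0.00145), HFE, a regulator of iron uptake, had -1.26 (adjusted p = 0.00901), and MR1, which presents vitamin B metabolites to T cells, had -1.21 (adjusted p = 0.00491). FCGRT went from a range of 820 to 1609 normalized counts in Control to one of 296 to 666 in DZNep, HFE from a range of 46.4 to 106 to one of 26.6 to 38.2, and MR1 from a range of 336 to 799 to one of 211 to 318. All DZNep libraries were below all Control libraries for each of these. ULBP3, an NKG2D ligand named after its values were seen, had 0.98 (adjusted p = 0.0937, 0.0139 without Control 2 and 0.000105 with the block). CD1D, which presents lipids to T cells and was also named after its values were seen, had 59.1 to 63.4 normalized counts in Control and 64.4 to 82.1 in DZNep, without overlap (0.27, adjusted p = 0.303). HLA-G, with 14.3 to 41.6 normalized counts over all libraries, had 0.51 (adjusted p = 0.293).

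All 8 genes of the DNA-bound complex on which NLRC5 acts were tested, and 2 rose and 1 fell (median -0.06, and 3 higher and 2 lower with the block). RFX5, the large RFX subunit, rose (0.75, edgeR adjusted p = 0.00405), and RFXAP, another subunit of the same complex, fell (-1.0, adjusted p = 0.00102). RFXAP went from a range of 562 to 920 normalized counts to one of 381 to 398. NFYA, a subunit of the CCAAT-binding factor named after its values were seen, rose by 0.81 (adjusted p = 0.0102).

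Among interferon-gamma and NF-κB inputs, 14 of 15 were tested, and 4 rose and 0 fell (median 0.39). At an unadjusted edgeR p under 0.05 there were 6 higher and 0 lower, without a share of all genes to set beside them. At an adjusted p under 0.05, DESeq2 gave 6 and 0, limma 5 and 0, and the block 7 and 1. Over all genes tested, DESeq2 called 21.9% higher and 23.3% lower, and limma 20% and 20.4%. RELB, an NF-κB subunit, rose from a range of 70.5 to 106 normalized counts to one of 213 to 251 (1.32, edgeR adjusted p = 0.000426). IRF1, the interferon-induced factor that binds the interferon-response motif, rose from a range of 275 to 401 to one of 673 to 856 (1.09, adjusted p = 0.000654). RELA rose by 0.80 (adjusted p = 0.000953) and IFNGR1, a chain of the interferon-gamma receptor, by 0.47 (adjusted p = 0.0264, but 0.0578 to 0.067 without Control 4, DZNep 2 or DZNep 3), both named after their values were seen. IFNGR2, the other chain of that receptor, was at -0.42 (adjusted p = 0.105, 0.0346 without Control 2 and 0.00578 with the block) and was lower in DZNep in all 4 same-number pairs. The feedback inhibitor SOCS1 was at 1.27 (adjusted p = 0.0702, 0.006 without Control 4 and 0.00228 with the block), and IFNGR2 and SOCS1 were also named after their values were seen. IFNG itself had 0 reads in all 8 libraries.

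**Figure D5:**
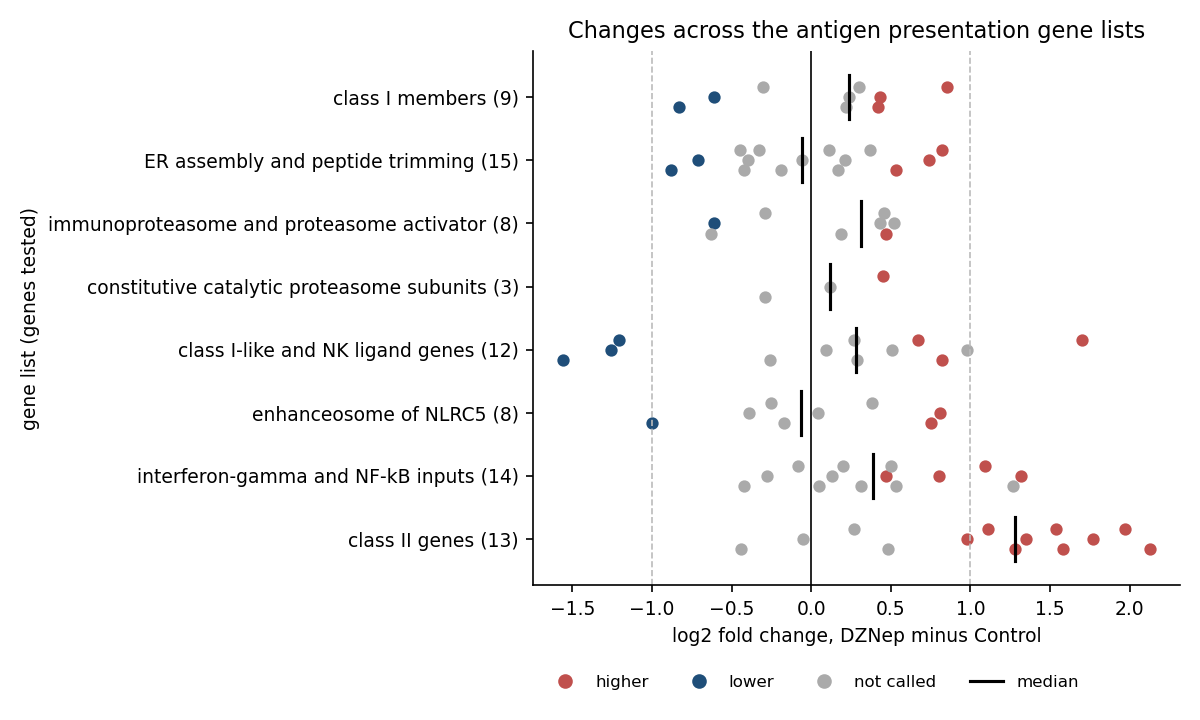
Log2 fold changes (x axis, DZNep minus Control, edgeR, 4 libraries a group) of the tested genes in 8 antigen presentation lists, a point a gene, colored by the call at an adjusted p under 0.05, with a bar at the list median and dashed lines at an absolute value of 1. The 9 class I genes have a median of 0.24 and the 13 class II genes a median of 1.28.

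Set beside the 9 class I genes, 9 of the 13 class II genes rose and 0 fell in edgeR, with a median log2 fold change of 1.28. Over all genes the shares were 19.1% and 21.8%. A log2 fold change of 1 was passed by 8 upward, as by 10.6% of all genes. DESeq2 (21.9% and 23.3% of all genes) and limma (20% and 20.4%) also gave 9 higher and 0 lower, and the replicate block (28.8% and 30.2%) 10 and 0. An unadjusted edgeR p under 0.05 gave 9 and 0 too, without a share of all genes to set beside them. The largest were HLA-DMB (2.13), HLA-DPB1 (1.97, adjusted p = 7.1e-05), HLA-DMA (1.77) and HLA-DRA (1.58, adjusted p = 0.000671). The class II transactivator CIITA, related to NLRC5 and named after its values were seen, was at -0.44 (edgeR adjusted p = 0.531) with 14.3 to 31.2 normalized counts in Control and 3.63 to 26.6 in DZNep. The difference between the lists was not tested, and both come from the same libraries.

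The genes whose profile over the 8 libraries was most like that of 4 members were found among 13232 or 13233 other genes, by the root mean square difference of standardized log2 CPM. For HLA-B they were MS4A15 (0.204), QPCT (0.212) and MEX3D (0.246). For B2M they were C10orf95-AS1 (0.244), LINC01003 (0.282) and TPI1 (0.287). For TAP1 they were SLCO4C1 (0.158), SERTM1 (0.158) and PRKCQ (0.177), and for NLRC5 TPX2 (0.127), STRBP (0.133) and SPRYD3 (0.139). No member was among these nearest genes. NLRC5 was itself too low in reads to be among the genes searched for the others. The distance to 1 other member was also taken, the first in the order of the member list and not the nearest. From HLA-B to HLA-C it was 0.404, with 80 genes nearer. To HLA-B it was 0.604 from B2M (359 genes nearer), 0.84 from TAP1 (3969) and 0.86 from NLRC5 (4120). Which member was nearest to each was not determined, and with 8 libraries in 2 groups many genes share such a profile.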

How the data were processed

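RNA from 4 Control and 4 DZNep cultures was sequenced as paired reads on an Illumina HiSeq. Per the labels and the study's methods, the authors trimmed reads with Trimmomatic 0.36, aligned them to GRCh38 with STAR 2.5.2b, and deposited raw counts per Ensembl gene from featureCounts (Subread 1.5.2), which used unique reads within exons. The annotation release and strand setting are not given in the sources used here. The authors also deposited a normalized table (a signal in reads, the counts divided by 1 DESeq2 size factor per library), which holds 19118 genes. No 2 libraries of a group differed by as little as sampling noise (lowest chi-square per degree of freedom 23.9).

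Counts were tested with edgeR 4.0.16 (R 4.3.3; TMM, filterByExpr, glmQLFTest, Benjamini-Hochberg over 19171 genes), without covariates. DESeq2 1.42.0, limma 3.58.1 on log2(normalized count + 1), other scalings and filters, and leaving out each library were alternatives, and the code was tested on simulated data. Symbols (56410 identifiers), lengths and positions came from GENCODE 44, and promoters from RefSeq. Same-numbered Control and DZNep libraries deviated together to unequal degrees (r = 0.1359, 0.4924, 0.4292 and 0.6729 across genes for numbers 1 to 4). The replicate number was therefore used as a block in an alternative fit. This pairing was inferred from the data and not stated in the labels. The main test and the exact permutation tests did not use it. Control 1 correlated best with DZNep 4, so the pairing is uncertain for number 1. Exact permutation tests (scipy 1.17.1) were two-sided. The members, gene lists and rules were chosen with earlier results of these data known. Genes named were the members, of each list those past both thresholds (at most 4) or else the 2 with the lowest adjusted p, the partners in ratios and the nearest profiles, besides those said to be named after their values were seen.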

Additional observations from a re-analysis of the deposited data

Results flagged for a closer look

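Of 152 groups of 4 libraries examined, 5 had 1 library far from the other 3, by a gap to the nearest above Dixon's 95% critical value, and chance alone flags about 1 group in 20. The log2 ratio of TAP1 to TAP2 in Control 1 was -0.286, where the other Control libraries were between -0.476 and -0.454, and every DZNep library was above them all. The log2 ratio of PSMB8 to PSMB5 in DZNep 2 was -8.6, where the others were between -6.11 and -5.92. The normalized count of LYZ in DZNep 2 was 450, against 21.6 to 24.7. RFXAP in DZNep 3 had 398 against 381 to 384, and RELB in DZNep 3 had 251 against 213 to 216, both small gaps in closely grouped libraries. No normalized count of the 9 class I genes was among these.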

How the results depend on the processing

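TAP2 kept its call under every alternative run. The number of members called higher was 3, and it was 1 when every gene with at least 1 read was tested and 0 to 2 when 1 library was left out. The number called lower was 2, and 1 to 2 with 1 library left out. Past a log2 fold change of 1, 0 were called in either direction, and leaving out 1 library gave 0 to 1 in each, the 1 in both cases without Control 2. HLA-B lost its call with every gene of at least 1 read (0.45, adjusted p = 0.109), and TAP1 did so there (0.45, adjusted p = 0.108) and with library sizes alone (0.50, adjusted p = 0.0547). HLA-E gained a call with DESeq2 (0.32) and with the replicate block (0.29), and TAPBP with the replicate block (-0.29), which made the members called 4 higher and 3 lower and changed no other member's call. With 1 library left out, log2 fold changes ranged from 0.35 to 0.53 for HLA-B, -1.0 to -0.67 for HLA-F, 0.34 to 0.51 for TAP1 and 0.74 to 1.09 for NLRC5, with no change of sign. For the partner ratios the pairing gave a sign-flip p of at least 0.125, the smallest that 4 pairs allow. Outside the members, PSMB8, which was not called, changed sign without DZNep 2 (0.06, in a range from -0.48). The causes were not tested. NLRC5 had the fewest reads of the members, 23 to 108 a library.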
